A study of Homo sapiens with 9 samples.

Results

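Plasminogen activators and matrix metalloproteinases are the secreted and surface-bound proteases with which invading cells open a path through the extracellular matrix. The genes described here were the 9 named members of this system: the urokinase PLAU, the tissue activator PLAT, the urokinase receptor PLAUR, the serpin SERPINE2, the metalloproteinases MMP1, MMP3, MMP2 and MMP14, and the metalloproteinase inhibitor TIMP1. They were taken by name, with every probe set annotated to one of them alone, which gave 18 of the 54675 probe sets on the arrays. Each gene had a probe set bright enough to be tested, so all 9 were among the 12505 genes compared. Of the 18 probe sets, 17 passed the same brightness limit, and the one that did not belongs to MMP2.

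The arrays measured total RNA from SW1783, an established human glioma cell line. Cells were transfected for 24 h with 50 nM of a synthetic duplex in 3 groups of 3 biological replicates: miR-376a*A, miR-376a*G and a control miRNA (miR-control). As background, the names mark an adenosine or a guanosine at the edited base of the strand, which lies in its seed, where target pairing starts, and guanosine mimics the inosine that editing makes. All groups received a transfected duplex, so no group shows untransfected cells, and every group is the same cell line.

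Urokinase cleaves plasminogen to plasmin, a broad protease, and its receptor holds that reaction at the cell surface. Plasmin can in turn activate secreted metalloproteinases, while MMP14 sits in the plasma membrane, cuts collagen and activates the MMP2 proenzyme. Serpins and TIMP proteins block these proteases, and in glioma these systems are known for their part in invasion of brain tissue.

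The unedited strand is shown because its seed is what separates the A form from the G form. It is RefSeq's mature hsa-miR-376a-5p from MIR376A1 (GRCh38.p14, chr14:101040788-101040809, plus strand), printed 5′ to 3′ with the seed, bases 2 to 8, in capitals. The transfected duplexes themselves are not printed.
hsa-miR-376a-5p: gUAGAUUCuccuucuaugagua

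A single array differed most from the rest, and leaving out other arrays also changed some calls. The deposited values are scaled signal intensities, with a median per array between 18.8 and 24.0. The miR-control replicate 1 array stood apart, with a best rank correlation of 0.941 to another array, against 0.969 to 0.970 for the other arrays, so results are given with and without it where it matters. Of 8 glial or glioma markers, 3 were above the brightness limit (VIM, SOX2 and SLC1A3), and GFAP, the classical astrocyte marker, had signals of 1.30 to 3.75, far below the limit of 20.0. Signals of SOX2 ran from 10.3 to 29.5, around that limit. All 5 mesenchymal and matrix markers were above it (COL1A1, COL1A2, CD44, FN1 and THY1), as were 2 of the 9 measured markers of leukocytes, endothelium and epithelium (PECAM1 and KRT8). In such bulk RNA, fewer cells of a kind and less RNA per cell cannot be told apart.

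Among the 9 genes, 3 stood out. The membrane protease MMP14 read below miR-control in miR-376a*A cells on every one of its 4 probe sets, 2 of which passed the test, PLAU was highest with miR-376a*G, and PLAUR was higher with both forms than with miR-control. Gene by gene, on the brightest probe set, 1 of 9 passed the threshold with miR-376a*A against miR-control, PLAUR, where 3.33% of all genes passed. With miR-376a*G 2 of 9 passed, PLAU and PLAUR, where 4.62% of all genes passed. Between miR-376a*A and miR-376a*G 0 of 9 passed in limma (2.63% of all genes), while 2 had an unadjusted p under 0.05. That fit takes its spread from all 9 arrays, controls included. On the 6 arrays of the forms alone 3 of 9 passed, where 10.3% of all genes passed. They were PLAU, MMP2 and MMP14 (limma adjusted p = 0.0201, 0.0295 and 0.0341). A gene passed when its limma p, adjusted over all genes by Benjamini-Hochberg, was under 0.05.

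At an unadjusted p under 0.05 the counts were 5 of 9 with miR-376a*A against miR-control (14.9% of all genes), 2 of 9 with miR-376a*G (17.8%) and 2 of 9 between the forms (10.7%). The arrays of the groups did not overlap for 5 of 9 genes with miR-376a*A against miR-control (20.5% of all genes), for 2 of 9 with miR-376a*G (21.7%) and for 4 of 9 between the forms (29.5%). The median log2 change over the 9 genes was 0.12, 0.07 and 0.03 in these comparisons, against 0.01, 0.01 and 0.00 over all genes. Both comparisons with miR-control share the same 3 control arrays.

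**Figure D1:**
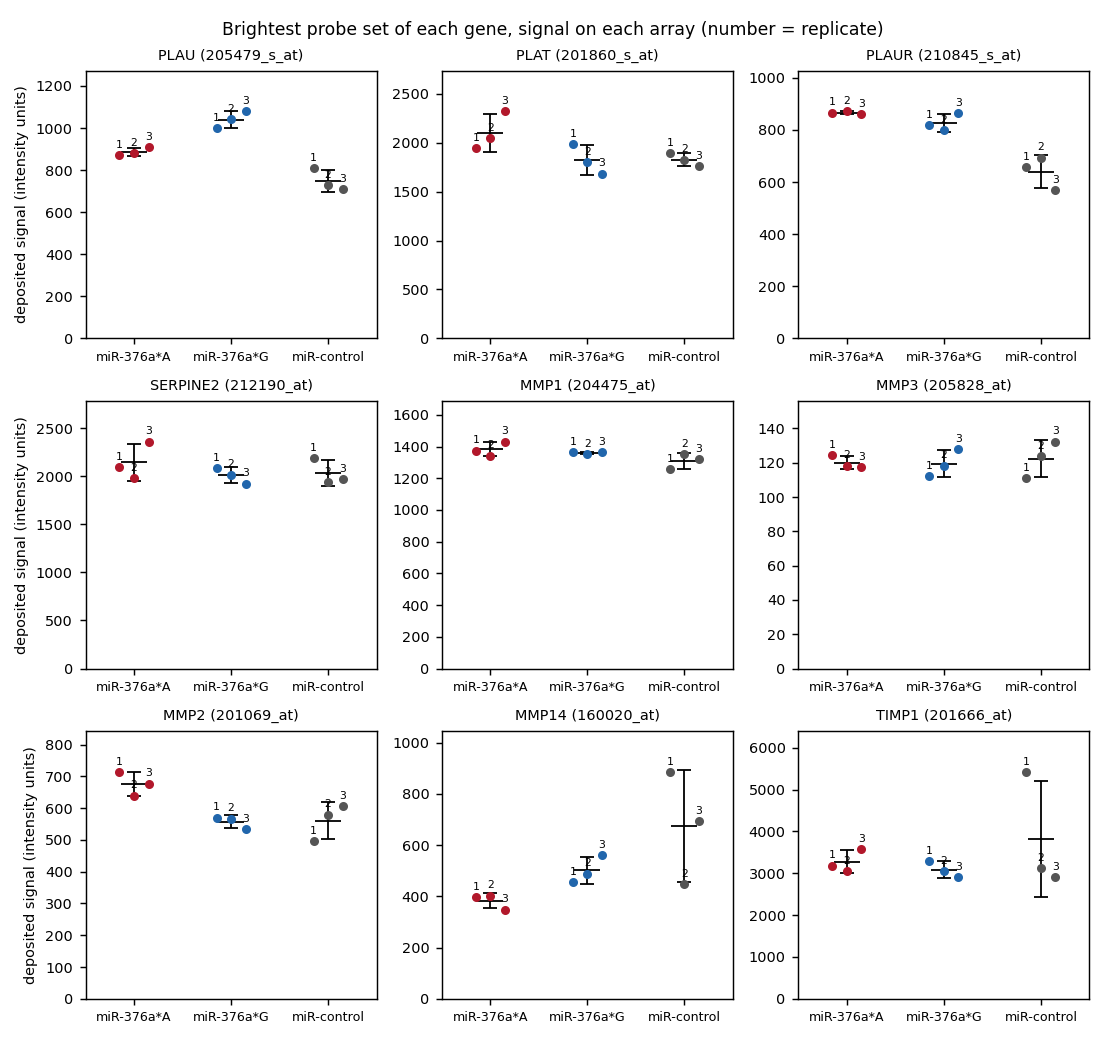
Deposited signal (y axis, intensity units, from 0) of the brightest probe set of each of the 9 genes on each array; points are arrays numbered by replicate, bars the mean and SD of 3. PLAU is highest with miR-376a*G, PLAUR is higher with both forms than with miR-control, MMP14 is lowest with miR-376a*A, and for TIMP1 the miR-control replicate 1 array stands alone at 5422.

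PLAU, the urokinase-type plasminogen activator, had signals of 1001, 1042 and 1079 with miR-376a*G and 871, 881 and 908 with miR-376a*A, against 809, 728 and 711 with miR-control. The order was miR-376a*G, then miR-376a*A, then miR-control, with no overlap between neighbouring groups. Against miR-control the rise with miR-376a*G was 1.39-fold (log2 0.48, SE 0.08, limma adjusted p = 0.00576). With miR-376a*A the log2 change was 0.23 (SE 0.08, adjusted p = 0.167), which missed the threshold. Set directly against miR-376a*G, miR-376a*A gave -0.25 (SE 0.08, unadjusted p = 0.00798 and adjusted p = 0.163 in limma's fit). Fitted on the 6 arrays of the forms alone, this difference passed (-0.25, adjusted p = 0.0201), where 10.3% of all genes passed.

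The second PLAU probe set, 211668_s_at, showed the same order of group means. It read 929, 824 and 876 with miR-376a*G and 753, 731 and 837 with miR-376a*A, against 698, 571 and 722 with miR-control. All 3 miR-376a*G arrays lay above the control arrays, and the log2 change was 0.39 (SE 0.10, adjusted p = 0.0696 in limma over all probe sets). Without miR-control replicate 1, PLAU on its brightest probe set was higher than miR-control with miR-376a*G (0.51, adjusted p = 0.000373) and, too, with miR-376a*A (0.27, adjusted p = 0.0180). The forms then differed by -0.24 (adjusted p = 0.0206), and the second probe set passed with miR-376a*G (0.42, adjusted p = 0.0172). Without that array 17.0% of all genes passed with miR-376a*G against miR-control, 13.4% with miR-376a*A and 9.72% between the forms. Blocking on replicate number kept the call of the rise with miR-376a*G (adjusted p = 0.0271), and fitting only the 6 arrays compared ended it (adjusted p = 0.0570).

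PLAUR, the glycolipid-anchored receptor that binds urokinase, had signals of 867, 871 and 859.5 with miR-376a*A and 817, 799 and 863 with miR-376a*G, against 658, 694 and 569 with miR-control. Every array of either form was above every control array, and the forms overlapped each other. The rise was 1.33-fold with miR-376a*A (log2 0.41, SE 0.09, adjusted p = 0.0298 in limma) and 1.28-fold with miR-376a*G (0.36, SE 0.09, adjusted p = 0.0457). Between the forms the difference was 0.05 (95% interval -0.14 to 0.25, adjusted p = 0.963).

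The other 2 PLAUR probe sets were above miR-control in both comparisons without passing. On 211924_s_at the signals were 492, 559 and 583 with miR-376a*A and 576, 542 and 545 with miR-376a*G, against 621, 410 and 302 with miR-control. There miR-control replicate 1 was the highest of all 9 arrays and the other controls the lowest. The log2 changes were 0.34 with miR-376a*A (limma adjusted p = 0.535) and 0.36 with miR-376a*G (0.432), and without miR-control replicate 3 they were 0.09 and 0.11. On 214866_at they were 392, 425 and 378 with miR-376a*A and 374, 359 and 417 with miR-376a*G, against 370, 304 and 300.2 with miR-control. This gave 0.28 with miR-376a*A (adjusted p = 0.366) and 0.21 with miR-376a*G (0.447). Without miR-control replicate 1 all 3 probe sets passed in limma over all probe sets, with log2 changes of 0.42, 0.61 and 0.40 for miR-376a*A (adjusted p = 0.00693, 0.00749 and 0.0161) and 0.37, 0.63 and 0.33 for miR-376a*G (adjusted p = 0.0122, 0.00543 and 0.0310). Calls rose widely without that array, with 13.4% and 17.0% of all genes past the threshold in these comparisons. The shares over all probe sets were not computed for it.

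The PLAUR calls lay close to the threshold, and several settings ended them with little change in size. Leaving out each array in turn gave log2 changes of 0.34 to 0.46 with miR-376a*A and, for miR-376a*G, 0.29 to 0.41. The call with miR-376a*A was lost without any one of the miR-376a*A replicates (adjusted p = 0.136, 0.154 and 0.105), without miR-376a*G replicate 1 or 2 (0.0625 and 0.0665) and without miR-control replicate 3 (0.0598), and when replicate number was blocked on (0.0799). The call with miR-376a*G was lost without any one of the miR-376a*A replicates (0.0935, 0.0975 and 0.0902), any one of the miR-376a*G replicates (0.125, 0.138 and 0.169) or miR-control replicate 3 (0.0836), and with the same block (adjusted p = 0.101). Averaging the 3 probe sets of the gene ended both calls (adjusted p = 0.189 for miR-376a*A, 0.199 for miR-376a*G). So did the fit of only the 6 arrays compared (0.125 and 0.199) and a fit without limma's intensity trend (0.0552 and 0.0719). The call with miR-376a*G was also lost with arrays centred on their medians (0.0718) or without normalization (0.0713). It was lost too with no brightness filter (0.0577) or one at the 25th percentile (0.0564). In the fit over all probe sets the brightest PLAUR probe set passed with miR-376a*A (adjusted p = 0.0351) and missed with miR-376a*G (0.0537).

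**Figure D2:**
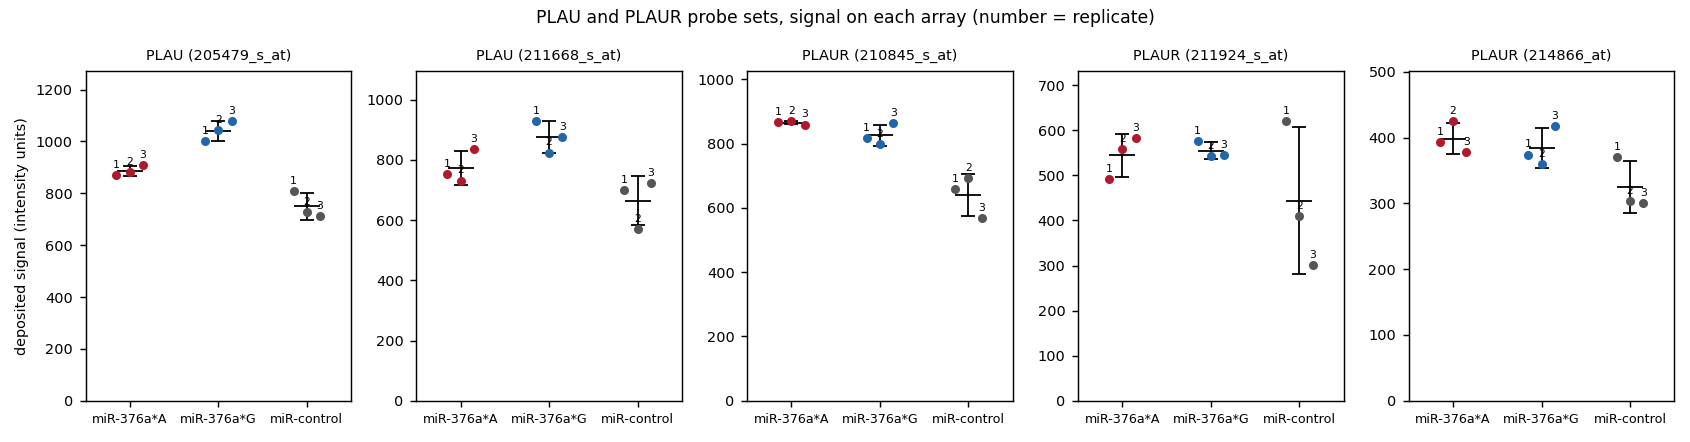
Deposited signal (y axis, intensity units, from 0) of the 2 PLAU and 3 PLAUR probe sets on each array; points are arrays numbered by replicate, bars the mean and SD of 3. Both PLAU probe sets are highest with miR-376a*G, and on PLAUR 211924_s_at the miR-control replicate 1 array at 621 lies far above the other controls.

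Promoter sequence is shown for PLAU and PLAUR because they were the members that rose with the same form, miR-376a*G. Each window runs from 250 bases before to 50 after a RefSeq start site (GRCh38.p14), printed 5′ to 3′ on the gene's strand. The PLAU window is chr10:73910882-73911181 on the plus strand and the PLAUR window is chr19:43670120-43670419 on the minus strand. Capitals mark matches on either strand to TGANTCA, the AP-1 motif, or to GGGCGG, the SP1 motif. No match overlapped another.
PLAU: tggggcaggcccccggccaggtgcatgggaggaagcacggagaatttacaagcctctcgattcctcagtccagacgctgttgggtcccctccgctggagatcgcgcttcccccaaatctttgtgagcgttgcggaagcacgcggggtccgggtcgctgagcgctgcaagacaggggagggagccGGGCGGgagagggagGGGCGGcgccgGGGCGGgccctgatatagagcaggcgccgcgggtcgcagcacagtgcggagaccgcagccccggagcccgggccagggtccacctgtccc
PLAUR: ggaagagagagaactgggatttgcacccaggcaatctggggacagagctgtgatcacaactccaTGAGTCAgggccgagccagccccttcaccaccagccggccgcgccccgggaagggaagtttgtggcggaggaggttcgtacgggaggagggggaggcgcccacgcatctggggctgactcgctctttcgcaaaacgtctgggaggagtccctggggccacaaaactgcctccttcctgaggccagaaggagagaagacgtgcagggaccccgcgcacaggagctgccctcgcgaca

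The PLAUR window held 1 AP-1 match, TGAGTCA, whose first base lies 186 bases before the start, and no GGGCGG. This PLAU window held 3 GGGCGG matches and no TGANTCA, and a second PLAU window in the table held neither. Over all 35116 promoter windows of this length, 7.71% held TGANTCA and 45.0% held GGGCGG. MMP14, with 1 window, had 1 GGGCGG and no TGANTCA. The matches describe these letters only.

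PLAT, the tissue-type plasminogen activator, had signals of 1945, 2048 and 2321 with miR-376a*A and 1991, 1799 and 1684 with miR-376a*G, against 1897, 1828 and 1762 with miR-control. The miR-376a*A arrays lay above the controls, and the miR-376a*G arrays overlapped them. Its log2 change was 0.23 with miR-376a*A (SE 0.08, limma adjusted p = 0.205). With miR-376a*G it was 0.07 (adjusted p = 0.703). Neither passed, and without normalization the value with miR-376a*G was -0.01. Leaving out miR-control replicate 1 gave 0.12 with miR-376a*A (adjusted p = 0.158) and -0.02 with miR-376a*G (0.793).

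SERPINE2, protease nexin-1, which inhibits thrombin and the plasminogen activators, differed by less than the spread between arrays. Its brightest probe set read 2094, 1978 and 2360 with miR-376a*A and 2088, 2018 and 1924 with miR-376a*G, against 2189.7, 1938 and 1974 with miR-control. All 3 groups overlapped. The log2 changes were 0.12 with miR-376a*A (95% interval -0.06 to 0.29, limma adjusted p = 0.552) and 0.09 with miR-376a*G (-0.09 to 0.26, adjusted p = 0.622), which became -0.02 without normalization. They were 0.02 and -0.01 without miR-control replicate 1. A dimmer probe set, 227487_s_at, gave 0.11 and 0.04.

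MMP14, also called MT1-MMP, gave the largest change of the 9 genes, and its probe sets did not all tell the same story. The brightest, 160020_at, read 398, 402 and 348 with miR-376a*A and 456, 489 and 559.9 with miR-376a*G, against 886, 449 and 693 with miR-control. The miR-376a*A arrays were the lowest 3 of the 9, and the control arrays spread over the widest range. Its log2 change with miR-376a*A against miR-control was -0.74 (SE 0.20, limma adjusted p = 0.0905), past the unadjusted level and short of the threshold over all genes. With miR-376a*G it was -0.37 (95% interval -0.82 to 0.08, adjusted p = 0.382).

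Of the other 3 MMP14 probe sets, 202827_s_at and 202828_s_at separated the forms more sharply. On 202827_s_at the signals were 158, 154 and 134 with miR-376a*A, against 288, 321 and 340.5 with miR-376a*G and 348, 250 and 282 with miR-control. On 202828_s_at they were 109, 123 and 104 with miR-376a*A, against 217, 237 and 252 with miR-376a*G and 328, 173 and 219 with miR-control. On both, the miR-376a*A arrays lay below all 6 others, while the miR-376a*G arrays lay within the range of the controls. The dimmest, 217279_x_at, read 90.3, 75.0 and 67.2 with miR-376a*A, against 88.6, 139.7 and 200.5 with miR-376a*G and 208, 151 and 119 with miR-control. There one miR-376a*G array reached down to the miR-376a*A arrays. After normalization that array lay barely above them, at log2 6.74 against 6.72 for miR-376a*A replicate 1.

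Tested over all probe sets, 202827_s_at fell 1.88-fold with miR-376a*A against miR-control (log2 -0.91, SE 0.15, limma adjusted p = 0.00969) and 202828_s_at 1.95-fold (-0.96, SE 0.21, adjusted p = 0.0419). 217279_x_at gave -0.88 without passing (SE 0.27, adjusted p = 0.139). With miR-376a*G against miR-control the same 3 gave 0.08, -0.00 and -0.18, with adjusted p of 0.829, 0.997 and 0.786. Between the forms (miR-376a*A minus miR-376a*G), 202827_s_at differed by -1.00 (SE 0.15, adjusted p = 0.00679), 202828_s_at by -0.96 (SE 0.21, adjusted p = 0.0517), 217279_x_at by -0.70 (SE 0.27, adjusted p = 0.381) and 160020_at by -0.36 (SE 0.20, adjusted p = 0.688). Thus 1 of 4 passed the direct test, where 1.84% of all probe sets passed, with all 4 below 0. Fitted on the 6 arrays of the forms alone, 202828_s_at (adjusted p = 0.00014 over all probe sets) and 160020_at (0.0432) passed too, and 217279_x_at did not. In that fit 10.3% of all genes passed, and the share over all probe sets was not computed. Probe sets of a gene read the same RNA and are not replicates.

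Counted over the 17 tested probe sets, 3 passed with miR-376a*A against miR-control, 2 lower (MMP14) and 1 higher (PLAUR), where 2.49% of all probe sets passed. With miR-376a*G against miR-control 1 passed, a PLAU probe set (3.44% of all probe sets), and between the forms 1 passed, the MMP14 probe set 202827_s_at (1.84%).

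Single arrays set how firmly the MMP14 result stands. Without miR-control replicate 1, which had the highest MMP14 signal on all 4 probe sets, the change with miR-376a*A on 160020_at was -0.53 (adjusted p = 0.0488 over all genes and 0.0584 over all probe sets). It was -0.76 on 202827_s_at and -0.68 on 202828_s_at (0.000896 and 0.00283 over all probe sets). The difference between the forms was then -1.00 on 202827_s_at (adjusted p = 5.56e-05) and -0.96 on 202828_s_at (0.000134). Without that array 13.4% of all genes passed with miR-376a*A against miR-control and 9.72% between the forms. Without miR-control replicate 2, the lowest control on 3 of the 4 probe sets, 160020_at changed by -1.00 with miR-376a*A (adjusted p = 0.00641 over all genes) and by -0.63 with miR-376a*G (0.0389), and 202828_s_at also differed between the forms (-0.96, adjusted p = 0.0254).

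The call of 202827_s_at with miR-376a*A was lost without miR-376a*A replicate 2 or 3 (adjusted p = 0.0515 and 0.0656) and in the fit of only the 6 arrays compared (0.0680). Its call between the forms was lost without miR-376a*A replicate 3 (0.0510). That of 202828_s_at with miR-376a*A was lost without any one of the miR-376a*A replicates (0.165, 0.136 and 0.170), any one of the miR-376a*G replicates (0.0814, 0.0852 and 0.0807) or miR-control replicate 3 (0.0704). It was also lost with the replicate block (0.0858), with no brightness filter (0.0920), with one at the 25th percentile (0.0511) and in the fit of 6 arrays (0.168). Averaging the 4 probe sets gave MMP14 a log2 change of -0.87 with miR-376a*A (adjusted p = 0.0294 over all genes). The same averaging gave -0.12 with miR-376a*G against miR-control (limma adjusted p = 0.790) and -0.75 between the forms (0.0654), neither of which passed.

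**Figure D3:**
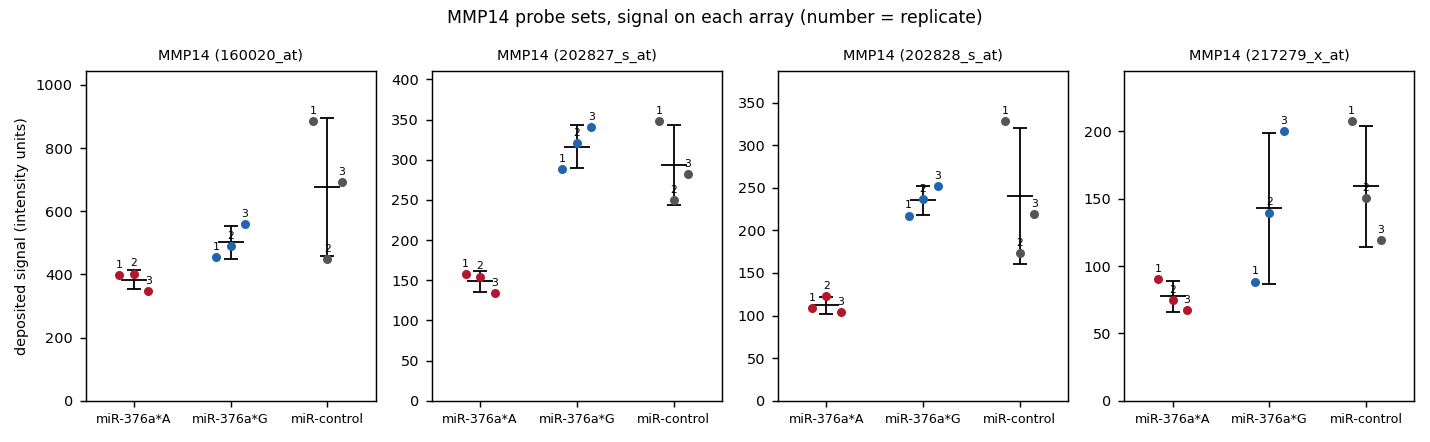
Deposited signal (y axis, intensity units, from 0) of the 4 MMP14 probe sets on each array; points are arrays numbered by replicate, bars the mean and SD of 3. The miR-376a*A arrays are low on all 4 panels, and the miR-376a*G arrays sit among the controls on 202827_s_at and 202828_s_at.

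MMP2, the gelatinase whose proenzyme MMP14 activates, had signals of 714, 639 and 678 with miR-376a*A, against 570.5, 567 and 535 with miR-376a*G and 495, 580 and 606 with miR-control. The miR-376a*A arrays were the 3 highest, and the miR-376a*G arrays lay within the controls. The log2 change with miR-376a*A was 0.24 (SE 0.09, unadjusted p = 0.0309 and adjusted p = 0.266 in limma's fit) and was -0.04 with miR-376a*G (adjusted p = 0.876), which became 0.06 with arrays centred on their medians. Between the forms the difference was 0.28 (SE 0.09, limma adjusted p = 0.238). The difference passed without miR-control replicate 1 (0.27, limma adjusted p = 0.0270), where 9.72% of all genes passed. That array enters it through the joint normalization and the shared estimate of the spread. In the fit of the 6 arrays of the forms the difference passed too (0.27, adjusted p = 0.0295, 10.3% of all genes). The other 2 MMP2 probe sets were dim, with signals of 15.2 to 55.0 on 1566678_at and 0.436 to 8.54 on 1566677_at, the one below the brightness limit. The tested one, 1566678_at, gave -0.19 with miR-376a*A against miR-control (limma adjusted p = 0.814), and averaging the probe sets brought MMP2 to 0.02 (0.967).

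MMP1, the interstitial collagenase, did not pass the test in any comparison. It read 1374, 1344 and 1431 with miR-376a*A and 1363, 1353 and 1365 with miR-376a*G, against 1258, 1354 and 1318 with miR-control. The groups overlapped after normalization, with log2 changes of 0.06 with miR-376a*A (95% interval -0.13 to 0.25, limma adjusted p = 0.814) and 0.07 with miR-376a*G (-0.13 to 0.26, adjusted p = 0.754). Both turned without miR-control replicate 1, to -0.05 and -0.04 (adjusted p = 0.612 and 0.655).

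MMP3, stromelysin-1, which activates other metalloproteinases, had overlapping groups and passed no test. It read 124, 118 and 117 with miR-376a*A and 112, 118 and 128 with miR-376a*G, against 111, 124 and 132 with miR-control. The log2 changes were -0.02 (95% interval -0.24 to 0.19, limma adjusted p = 0.946) and -0.04 (-0.26 to 0.18, adjusted p = 0.886), turning to 0.05 and 0.03 with arrays centred on their medians. Without miR-control replicate 3 the change with miR-376a*A was 0.00.

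TIMP1, a secreted inhibitor of metalloproteinases, read 3184, 3055 and 3576 with miR-376a*A and 3297, 3057 and 2910.5 with miR-376a*G, against 5422, 3123 and 2914 with miR-control. A single control array, replicate 1, stood apart, and its maximum over all probe sets was 7191, against 3601 to 4374 on the other arrays. After quantile normalization the log2 changes were 0.03 with miR-376a*A (95% interval -0.05 to 0.12, limma adjusted p = 0.758) and 0.01 with miR-376a*G (-0.08 to 0.09, adjusted p = 0.955), but -0.17 and -0.25 on the deposited scaling (adjusted p = 0.777 and 0.592) and -0.10 and -0.19 with median centring. None of these scalings gave a call. The changes were 0.01 and -0.02 without miR-control replicate 1.

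**Figure D4:**
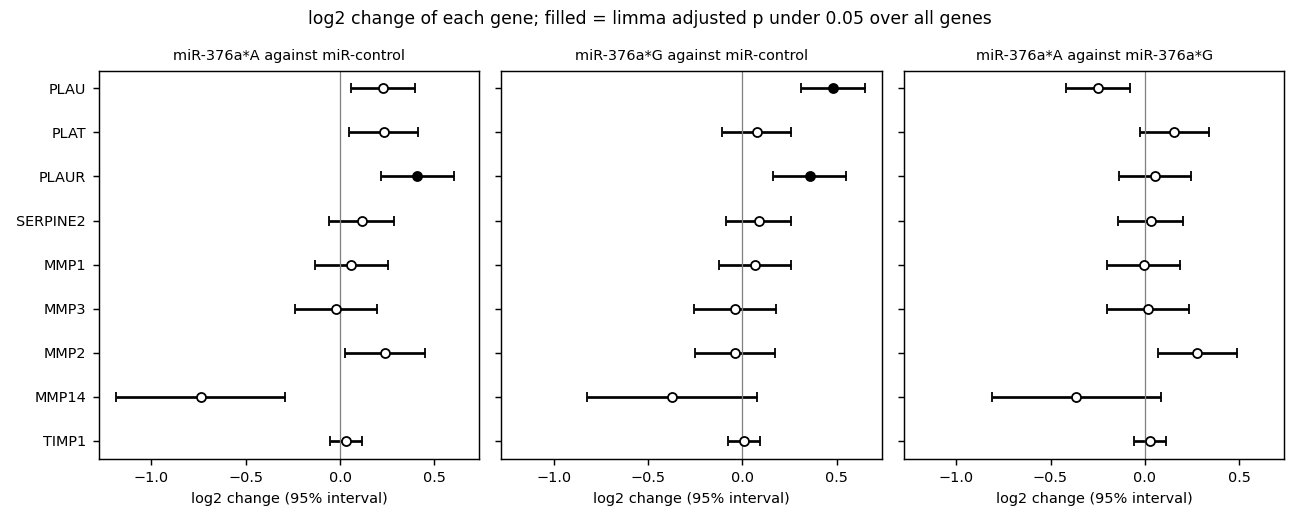
log2 change (x axis) of the brightest probe set of each of the 9 genes in the 3 comparisons, with 95% intervals from the limma fit; filled points passed the threshold over all genes. PLAUR is filled with miR-376a*A, PLAU and PLAUR with miR-376a*G, and MMP14 has the widest intervals.

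The rest of the proteolysis system was read from a list of 43 other genes, 39 of which had a probe set of their own and 23 of which were bright enough to test. None of the 23 passed limma's test in any of the 3 comparisons (0 higher and 0 lower in each), where 3.33%, 4.62% and 2.63% of all genes passed in the order used above. At an unadjusted p under 0.05 the counts were 5, 1 and 1 of 23, where the shares of all genes were 14.9%, 17.8% and 10.7%. Their median log2 changes were 0.01, -0.00 and 0.02 in that order.

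TIMP3, a matrix-bound metalloproteinase inhibitor, had signals of 189, 209.6 and 223 with miR-376a*A, against 157, 121 and 138 with miR-376a*G and 157, 147 and 97.1 with miR-control. The miR-376a*A arrays lay above all others. The log2 change was 0.59 against miR-control (SE 0.19, limma adjusted p = 0.150) and 0.55 against miR-376a*G (SE 0.19, adjusted p = 0.245). Without miR-control replicate 1 they passed, at 0.75 (adjusted p = 0.0102) and 0.55 (0.0332). TIMP2, which inhibits metalloproteinases and also helps MMP14 activate the MMP2 proenzyme, gave -0.02 with miR-376a*A (adjusted p = 0.972) and -0.04 with miR-376a*G (0.901). TIMP2 without miR-control replicate 1 gave -0.15 (adjusted p = 0.211) and -0.18 (0.127).

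Without that control array 3 of the 23 genes passed with miR-376a*A against miR-control, all higher: TIMP3, the growth factor TGFB1 (0.78, adjusted p = 0.00185) and the lysosomal protease CTSD (0.29, adjusted p = 0.0369). With miR-376a*G 2 passed, both higher, TGFB1 (0.59, adjusted p = 0.00820) and the plasminogen receptor PLGRKT (0.29, adjusted p = 0.0289), and between the forms 1 passed, TIMP3. Leaving out that array raised the share of all genes past limma's threshold to 13.4%, 17.0% and 9.72% in these comparisons, so the shares with all arrays are not the yardstick for these counts.

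Patterns like those of the leading members were looked for over the 9 normalized arrays. The 3 genes of all those tested whose log2 values correlated most with MMP14 on its brightest probe set were FAF2 (Pearson r = 0.97), DCAF10 (0.97) and SRXN1 (0.96). Those most like PLAU were MSI2 (0.99), RELT (0.98) and BOD1 (0.97). Their own log2 changes ran from -0.32 to -0.23 with miR-376a*A for the first 3 genes and from 0.21 to 0.39 with miR-376a*G for the others. The arrays share 3 groups and one outlying control array, so these values describe likeness and carry no test.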

How the data were processed

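RNA from 9 samples was hybridized to Affymetrix arrays after Biotin-ULS labelling, per the labels' protocols, and the submitters' processing notes name GCOS 1.4.0.036. The deposited values are linear signal intensities, and on each array their mean after trimming 2% at each end was 100.01. How they were summarised and background-corrected is not given in the sources used here. Scaling hides a change common to most transcripts.

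Signals were converted to log2(signal + 16) and quantile normalized, because array medians ranged over 0.20, above 0.1. A fold change on this scale understates the change of dim probe sets. Gene names came from the platform annotation, where 41097 probe sets had 1 gene symbol. Probe sets with a mean below the 50th percentile (log2 5.17) were left out, and the brightest remaining one stood for its gene. R 4.3.3 and limma 3.58.1 (lmFit, eBayes with trend) fitted the 3 groups together, over 12505 genes and again over 27338 probe sets. A Benjamini-Hochberg adjusted p under 0.05 was the threshold. Where a fit left arrays out, the remaining arrays were quantile normalized again. The procedure was tested on simulated data. There 13.5% of the calls were false in each comparison with miR-control, above the threshold, and most of the smallest changes put into them were missed. Between the forms 1.27% of the calls were false. With 3 arrays against 3 an exact test alone cannot go below p = 0.1, and the number of arrays limits precision.

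The members, the list of other genes and the alternatives were chosen with earlier results of these data known. Named genes were the members, TIMP2, TIMP3, listed genes past the threshold, and the 3 genes most like the member with the largest change in each comparison with miR-control. Listed genes that passed only without miR-control replicate 1 were named after their values were seen. An item of the rule is not reported here. Deviations from the group means correlated between same-numbered arrays of miR-376a*G and miR-control with r of 0.125 to 0.187, all over 0.1, so values blocked on replicate number are given where they change a call, although no label names a shared culture. For the other comparisons r ran from -0.361 to 0.03. Sequences are RefSeq's (GRCh38.p14). Of the 9 genes, 5 had a promoter window searched here.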

Additional observations from a re-analysis of the deposited data

How the results depend on the processing

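Counts of members past limma's threshold moved with several choices, and no call changed sign. For genes with miR-376a*A against miR-control, 1 passed with all arrays, 0 in the fit of the 6 arrays compared, without the intensity trend or with the replicate block, 3 with array weights, and 0 to 3 when an array was left out. With miR-376a*G against miR-control 2 passed, against 1 with median centring, without normalization, with no filter or one at the 25th percentile, with averaged or single probe sets, without the trend or with the replicate block, 0 in the fit of 6 arrays, and 1 to 3 when an array was left out. Between the forms 0 passed, against 3 in the fit of 6 arrays or with array weights and 0 to 2 when an array was left out. The shares of all genes that passed moved as well. With array weights they were 18.5%, 19.4% and 13.2% in these comparisons, and without miR-control replicate 1 they were 13.4%, 17.0% and 9.72%. In the fit of 6 arrays they were 1.26%, 1.6% and 10.3%. Shares over all probe sets were not computed for these settings. Over probe sets, an alternative chosen after seeing the data, 3 passed with miR-376a*A. There were 2 with median centring, without normalization, with a filter at the 25th percentile or without the trend. In all of these but the filter the PLAUR call was the one lost. There was 1 with no filter or the block, 0 in the fit of 6 arrays, 8 with array weights and 0 to 6 when an array was left out. With miR-376a*G 1 passed, against 0 in the fit of 6 arrays, 4 with array weights and 1 to 5 when an array was left out. Between the forms 1 passed, against 2 with median centring, without normalization or with a pseudocount of 1, 5 in the fit of 6 arrays, 6 with array weights and 0 to 4 when an array was left out. The fits of 6 arrays and those leaving out an array have fewer arrays by construction. Even so, the fit of 6 arrays raised the counts between the forms. There it also leaves the control arrays out of the normalization and out of the estimate of the spread. The cause was not tested for any setting. The block changed no member's call in the direct comparison of the forms. Over all alternatives the PLAU change with miR-376a*G ran from 0.43 to 0.53 and passed in 20 of 21, PLAUR lay between 0.34 and 0.50 for miR-376a*A (11 of 21) and between 0.28 and 0.43 for miR-376a*G (5 of 21), and the MMP14 change with miR-376a*A lay between -1.00 and -0.34 (3 of 21).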
